A study of Mus musculus with 20 samples.

Results

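The NRF2 antioxidant response was followed here through 10 genes, which were the rows of the deposited tables whose symbol was Nfe2l2, Keap1, Gclc, Gclm, Slc7a11, Srxn1, Txnrd1, Nqo1, Hmox1 or Osgin1. These were 10 of the 22298 genes listed for each of 20 livers, and 9 of them passed the filter on low counts and entered the tests over 12342 genes. Slc7a11 did not pass and is described from its counts alone. The livers came from male Lepr db/db mice, which lack the long, signalling form of the leptin receptor and are obese and diabetic, and every group carried that genotype. All mice received an AAV8 vector by tail vein at 5 weeks of age, and then vehicle or benzbromarone (BBR) by gavage once daily for 4 weeks. The Vec mice received a vector with a non-targeting shRNA and vehicle (the samples labelled control), and the Vec+BBR mice the same vector and BBR at 25 mg/kg. The shRNA mice received a vector that carries several shRNAs against PPARγ and vehicle, and the shRNA+BBR mice that vector and BBR at 25 mg/kg. There were 5 livers in each group. BBR is a uricosuric drug with known liver toxicity, and the shRNA lowers PPARγ only in cells that AAV8 enters, which in liver are mainly hepatocytes. Every mouse received a vector and every mouse had the db/db genotype, so neither was a variable.

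NRF2, encoded by Nfe2l2, is a transcription factor whose amount is set mainly after translation. KEAP1 holds it in the cytoplasm and presents it to a CUL3 ubiquitin ligase, and oxidants or electrophiles that modify cysteines of KEAP1 let NRF2 accumulate. In the nucleus NRF2 pairs with small MAF proteins and binds the antioxidant response element. Its targets in liver make glutathione (Gclc, Gclm), bring in cystine for it (Slc7a11), reduce thioredoxin and peroxiredoxins (Txnrd1, Srxn1) and handle quinones and heme (Nqo1, Hmox1). Since the control lies largely in the protein, the mRNA of Nfe2l2 or Keap1 is no measure of NRF2 activity, and the response is usually read from several targets at once.

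The core of the antioxidant response element reads TGACNNNGC or TGAGNNNGC, and both spellings were searched on both strands in the RefSeq windows of 300 bases around annotated start sites (250 before and 50 after, GRCm38.p6). Of the 10 genes, 8 were in the table and 6 of these held at least 1 match (Nfe2l2, Gclm, Txnrd1, Srxn1, Osgin1 and Slc7a11), while Keap1 and Nqo1 held none. Counted by window, these 8 genes had 10 windows, as Txnrd1 has 3, and 6 of the 10 held a match. Over all 32851 windows, 27.8% held a match of either spelling, 12.4% held TGACNNNGC and 17.6% held TGAGNNNGC. The windows are shown for Srxn1, which rose with BBR and held 3 matches, and, around the match only, for Gclm and Txnrd1, which did not rise with BBR. Osgin1, which did not rise either, held a TGAGNNNGC match at −99, on the minus strand. Its letters are those of the Srxn1 match at −45. Gclc, which rose, was not in the table. Capitals mark the match, and on the minus strand it reads as the reverse complement. A match is a run of letters in the window and not a measured binding site.
Srxn1, chr2:152105274.0-152105573.0, plus strand: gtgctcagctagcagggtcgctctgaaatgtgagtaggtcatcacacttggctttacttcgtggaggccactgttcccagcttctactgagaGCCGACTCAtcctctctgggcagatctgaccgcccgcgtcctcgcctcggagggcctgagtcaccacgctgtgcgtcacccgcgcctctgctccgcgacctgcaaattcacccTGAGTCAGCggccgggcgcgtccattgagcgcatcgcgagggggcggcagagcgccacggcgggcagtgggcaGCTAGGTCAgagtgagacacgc
Gclm, chr3:122245413-122245441, plus strand: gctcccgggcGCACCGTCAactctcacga
Txnrd1, chr10:82859104-82859132, plus strand: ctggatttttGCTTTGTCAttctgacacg
The Srxn1 matches begin at bases −158, −45 and 28 from the start site, that of Gclm at −134 and that of Txnrd1 at −92, the last from the second of the 3 start sites the table gives for Txnrd1.

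Total counts per library ran from 17432903 to 25024094, and no pair of libraries within a group agreed within sampling noise. Pparg, which the shRNA targets, was at 24.8 ± 8.63 CPM (read counts scaled to library size; SD, n = 5) in Vec and 5.73 ± 1.53 CPM in shRNA livers, and at 31.8 ± 4.57 CPM in Vec+BBR and 13.9 ± 6.22 CPM in shRNA+BBR livers. It was lower with the knockdown by a log2 fold change of −2.12 under vehicle and −1.20 under BBR (edgeR adjusted p = 4.47e-05 and 0.00843). Of the cell type markers, hepatocyte markers led in every library, and none of the 8 was at 0.

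On the length-corrected FPKM scale, Gclm had the highest level of the 10 genes in every group, with means from 88.2 to 95.6 FPKM. Gclc, the other subunit of the same enzyme, came second, at 40.8 ± 4.74 FPKM in Vec (SD, n = 5) and 70.6 ± 12.8 FPKM in Vec+BBR livers. The Vec ranges of Gclm and Gclc did not overlap, and those of Vec+BBR did. Between the second and the ninth gene of the Vec order (Gclc, Txnrd1, Osgin1, Nfe2l2, Srxn1, Nqo1, Hmox1, Keap1), no gene was clear of its neighbour. With BBR in Vec mice Srxn1 moved from the sixth to the third place, from a mean of 19.6 to 36.7 FPKM. Keap1 and Hmox1 held the eighth and ninth places in all 4 groups, between 11.2 and 14.2 FPKM, and Slc7a11 was last at 0.0296 FPKM or less.

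BBR in Vec mice raised 2 of the 9 tested genes, the catalytic subunit gene of glutathione synthesis, Gclc, and the peroxiredoxin repair gene, Srxn1. None was called lower. Over all 12342 genes, 7.58% were called higher and 7.88% lower in this comparison. The median log2 fold change of the 9 members was 0.08, against −0.01 over all genes. The other glutathione, thioredoxin, quinone and heme genes did not pass the test.

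Gclc (ENSMUSG00000032350, chromosome 9, 77754535 to 77794485, GRCm38) encodes the catalytic subunit of glutamate-cysteine ligase, the enzyme of the first and rate-limiting step of glutathione synthesis. Its level was 145, 137, 172, 133 and 152 CPM in the 5 Vec livers and 227, 276, 241, 216 and 199 CPM in the 5 Vec+BBR livers. Every Vec+BBR liver was above every Vec liver, and the groups did not overlap, as in 4.70% of all tested genes in that direction. The means were 148 ± 15.5 CPM and 232 ± 29.2 CPM (SD, n = 5), or a log2 fold change of 0.65 (SE 0.11, edgeR adjusted p = 0.000979). With the knockdown Gclc stood at 170, 132, 136, 144 and 143 CPM under vehicle and at 150, 113, 140, 181 and 147 CPM under BBR. These 2 groups overlapped each other and the Vec livers, and their log2 fold change was 0.01 with a 95% interval from −0.22 to 0.25 (edgeR adjusted p = 0.949). In whole liver, fewer cells of a type and less RNA per cell cannot be told apart.

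Gclm (ENSMUSG00000028124, chromosome 3, 122245557 to 122270732) encodes the modifier subunit, which lowers the feedback inhibition of the enzyme by glutathione. Its levels were 181, 200, 159, 158 and 159 CPM in Vec and 204, 166, 178, 191 and 166 CPM in Vec+BBR livers. The 2 groups overlapped, and the log2 fold change was 0.08, with a 95% interval from −0.11 to 0.27 (edgeR adjusted p = 0.612). The lowest shRNA liver was at 156 and the highest at 169 CPM, and the shRNA+BBR livers lay between 153 and 202 CPM. Gclm passed in no comparison. Its locus overlaps Gm17494 on the other strand and the pseudogene Gm6061, and no source states that the counting used strand, so reads of these cannot be told from those of Gclm.

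**Figure D1:**
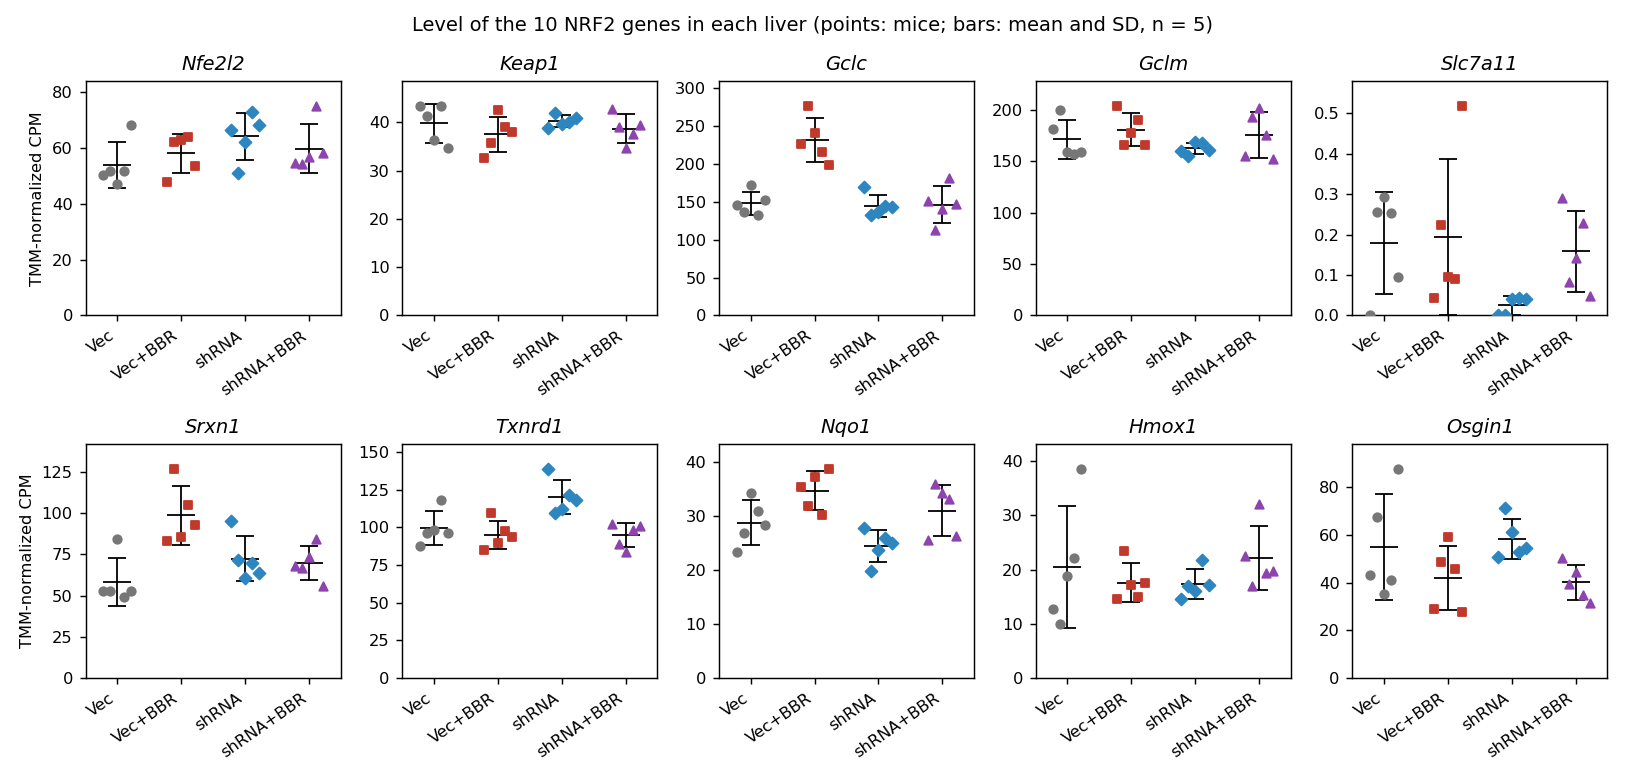
Level of each of the 10 genes in TMM-normalized CPM (y axes, from 0, each gene on its own scale) by group (x axes). Points are the 5 livers of a group in replicate order, and bars are the mean and SD. All 5 Vec+BBR livers lie above all Vec, shRNA and shRNA+BBR livers for Gclc, Vec replicate 3 is the one Vec liver within the Vec+BBR range for Srxn1, and the shRNA livers all lie above the shRNA+BBR livers for Txnrd1 and Osgin1.

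Srxn1 (ENSMUSG00000032802, chromosome 2, 152105516 to 152111376) encodes sulfiredoxin, which reduces overoxidized peroxiredoxins. It was at 53.0, 52.5, 84.2, 49.1 and 52.8 CPM in Vec and at 82.8, 127, 85.7, 105 and 92.4 CPM in Vec+BBR livers. Replicate 3 was the 1 Vec liver that reached into the Vec+BBR range, and 4 of the 5 Vec+BBR livers were above all Vec livers. The means were 58.3 ± 14.6 CPM and 98.5 ± 17.9 CPM (SD, n = 5), or a log2 fold change of 0.76 (SE 0.16, edgeR adjusted p = 0.00309). Srxn1 was at 95.1, 71.6, 60.7, 69.8 and 63.4 CPM in shRNA and at 68.0, 66.4, 73.5, 84.3 and 55.6 CPM in shRNA+BBR livers. The last 2 groups overlapped widely, with a log2 fold change of −0.05 (95% interval −0.38 to 0.27, edgeR adjusted p = 0.841).

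Txnrd1 (ENSMUSG00000020250, chromosome 10, 82833951 to 82897712), the cytosolic thioredoxin reductase, did not follow Srxn1. Its levels were 87.3, 96.2, 98.3, 118 and 96.5 CPM in Vec and 84.7, 109, 89.3, 97.3 and 93.5 CPM in Vec+BBR livers, which overlapped. The log2 fold change was −0.07 (95% interval −0.26 to 0.12, edgeR adjusted p = 0.678). Its locus overlaps Eid3 on the same strand and 2 further transcripts on the other strand, Gm38560 and Gm47073, so some reads may not be its own.

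Nqo1 (ENSMUSG00000003849, chromosome 8, 107388225 to 107403206) encodes the quinone reductase that is the most used readout of NRF2. It was at 23.3, 26.9, 34.3, 30.9 and 28.3 CPM in Vec and at 35.4, 31.8, 37.2, 30.2 and 38.7 CPM in Vec+BBR livers. All 5 Vec+BBR livers were above the Vec mean of 28.7 CPM, while the ranges overlapped, and the log2 fold change of 0.27 did not pass (SE 0.12, edgeR adjusted p = 0.125). In the knockdown mice it was at 27.8, 19.8, 23.6, 25.9 and 24.9 CPM under vehicle and at 25.5, 35.9, 34.2, 33.0 and 26.2 CPM with BBR. There 3 of the 5 BBR livers were above all vehicle livers, and the log2 fold change of 0.34 missed the threshold (SE 0.12, edgeR adjusted p = 0.0522). Nqo1 passed in 4 of 17 alternatives, among them those without shRNA+BBR replicate 1 or replicate 5, and kept its sign in all 17.

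Hmox1 (ENSMUSG00000005413, chromosome 8, 75093621 to 75100589) encodes the inducible heme oxygenase, which also rises in macrophages that take up red cells. In Vec livers it varied most among the tested members, at 12.8, 10.03, 18.8, 22.1 and 38.6 CPM, a coefficient of variation of 54.7%. The Vec+BBR livers, from 14.6 to 23.5 CPM, lay inside the Vec range, and the log2 fold change was −0.23 with a wide 95% interval from −0.76 to 0.31 (edgeR adjusted p = 0.600). Its direction rested on Vec replicate 5, without which it was 0.13. Osgin1 (ENSMUSG00000074063, chromosome 8, 119434124 to 119446256), an oxidative stress induced growth inhibitor, was at 43.1, 67.6, 35.2, 41.2 and 87.6 CPM in Vec and at 29.1, 48.6, 59.0, 45.5 and 27.6 CPM in Vec+BBR livers. Its groups overlapped, with a log2 fold change of −0.39 (SE 0.23, edgeR adjusted p = 0.268). Vec replicate 5 was the highest Vec liver for Hmox1, Osgin1 and Nfe2l2 alike. Its summed erythroid markers, at 1317 CPM, were the highest of the Vec livers too. In Vec+BBR replicates 3 and 4 these markers were higher still, at 2300 and 1626 CPM, with Hmox1 at 17.2 and 14.9 CPM. Osgin1 was at 59.0 and 45.5 CPM in those livers. Vec replicate 3, with markers at 1155 CPM, had Hmox1 at 18.8 CPM and the lowest Vec level of Osgin1, 35.2 CPM. Among shRNA+BBR livers, replicate 3 was highest for both the markers (1266 CPM) and Hmox1 (32.1 CPM). The part of blood cells in these values was not tested.

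Neither regulator passed in any of the 4 comparisons between groups. Nfe2l2 (ENSMUSG00000015839, chromosome 2, 75675513 to 75704641) was at 50.2, 51.9, 47.0, 51.8 and 68.4 CPM in Vec and at 47.9, 62.0, 63.0, 64.0 and 53.5 CPM in Vec+BBR livers. The groups overlapped, and the log2 fold change was 0.11 (95% interval −0.14 to 0.36, edgeR adjusted p = 0.587). Keap1 (ENSMUSG00000003308, chromosome 9, 21229730 to 21239361) had group means from 37.5 to 40.2 CPM. Over the 4 comparisons between groups its log2 fold change lay between −0.09 and 0.04, and it passed in none. Keap1 has an antisense gene, Gm16754, whose reads would not be told apart without strand.

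Slc7a11 (ENSMUSG00000027737, chromosome 3, 49892526 to 50443614), the cystine importer, was near the limit of detection, with 0, 4, 6, 5 and 2 counts in Vec and 1, 5, 2, 2 and 11 counts in Vec+BBR livers. The shRNA livers had 0, 0, 1, 1 and 1 counts and the shRNA+BBR livers 6, 2, 3, 5 and 1. The last 2 groups meet at 1 count, so only the scaling to CPM sets them apart, and the two-sided exact permutation p was 0.00794 in CPM, the smallest that 5 against 5 can give, and 0.0317 in counts. The shRNA livers were below the Vec livers on average in CPM (exact permutation p = 0.0476), while in counts the p was above 0.05 (exact permutation p = 0.0714). The ranges overlapped, and leaving out any 1 of 9 of the 10 livers raised the p above 0.05. No fold change is given, since the shRNA group lay under the floor of 3 counts in each library. Several antisense and pseudogene transcripts overlap the locus.

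In the knockdown mice BBR lowered 1 of the 9 tested genes, Txnrd1, and raised none, beside 7.28% of all tested genes called lower and 8.37% called higher. Neither Gclc nor Srxn1 passed here. Txnrd1 was at 139, 110, 112, 122 and 118 CPM in shRNA and at 102, 89.0, 83.8, 98.0 and 101 CPM in shRNA+BBR livers. All shRNA livers were above all shRNA+BBR livers, and the log2 fold change was −0.34 (SE 0.09, edgeR adjusted p = 0.0191). The call was lost without shRNA replicate 1 and without shRNA+BBR replicate 3, where the highest adjusted p over all alternatives, 0.0662, was reached. Osgin1 also did not overlap between the groups, at 50.8, 71.4, 61.2, 52.6 and 54.5 CPM in shRNA and 50.2, 39.5, 44.3, 34.8 and 31.4 CPM in shRNA+BBR livers. Its log2 fold change of −0.54 did not pass (SE 0.23, edgeR adjusted p = 0.108). Of all tested genes, 5.58% were lower without overlap in this comparison, against 2 of the 9 members. The median of the 9 members was −0.05, against 0.01 over all genes.

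Under vehicle, knockdown of PPARγ called none of the 9 genes, where 5.28% of all tested genes were called higher and 7.91% lower. At an unadjusted p under 0.05, where 28.4% of all tested genes lay, there were 2 members in edgeR's test, Nfe2l2 and Txnrd1, both higher, and DESeq2 called 1. Txnrd1 had means of 99.2 CPM in Vec and 120 CPM in shRNA livers and did not pass (log2 fold change 0.28, SE 0.09, edgeR adjusted p = 0.0509), and 3 of the 5 shRNA livers were above all Vec livers. Nfe2l2 was at 53.9 ± 8.35 CPM in Vec and at 64.2 ± 8.28 CPM in shRNA livers (SD, n = 5, edgeR adjusted p = 0.168). It passed when Vec replicate 5, the highest Vec liver, was left out (edgeR adjusted p = 0.0477). The median of the 9 members was 0.02.

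Under BBR, Gclc was the 1 member called between the vectors, and it was lower with the knockdown, beside 4.82% of all tested genes called lower and 3.31% called higher. Its mean fell from 232 ± 29.2 CPM in Vec+BBR to 146 ± 24.3 CPM with the knockdown added (SD, n = 5), without overlap (as in 5.19% of tested genes in that direction), for a log2 fold change of −0.66 (SE 0.11, edgeR adjusted p = 0.0015). Srxn1 was at 98.5 and 69.6 CPM, with every shRNA+BBR liver below the Vec+BBR mean, and its log2 fold change of −0.50 fell short of the threshold (SE 0.16, edgeR adjusted p = 0.0514). The 4 comparisons use the same 4 groups, so the Vec+BBR livers enter both this result and the BBR result in Vec mice, and the 2 are not independent.

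Whether BBR acted differently under the 2 vectors was tested directly as an interaction, which called 0 of the 9 members and 18 of the 12342 genes (0.146%). The count over all genes moved from 18 to between 5 and 122 with 1 liver left out, and reached 338 over all alternatives, so this share is a loose reference. The difference of the 2 BBR effects was −0.64 for Gclc (95% interval −0.97 to −0.30, unadjusted p = 0.00068, edgeR adjusted p = 0.0875). It was −0.81 for Srxn1 (95% interval −1.27 to −0.35, unadjusted p = 0.00153, edgeR adjusted p = 0.102). DESeq2 called 2 members in the interaction. edgeR called Srxn1 without Vec replicate 3, the highest Vec liver for Srxn1. It called both genes without Vec replicates 3 and 5, the highest Vec livers for Gclc, a choice made after the values were seen. Leaving out high Vec livers widens the BBR effect in Vec mice, so these edgeR calls add no support. At an unadjusted p under 0.05, where 18.5% of all tested genes lay, there were 3 members in edgeR's test, the third being Txnrd1 at −0.28.

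**Figure D2:**
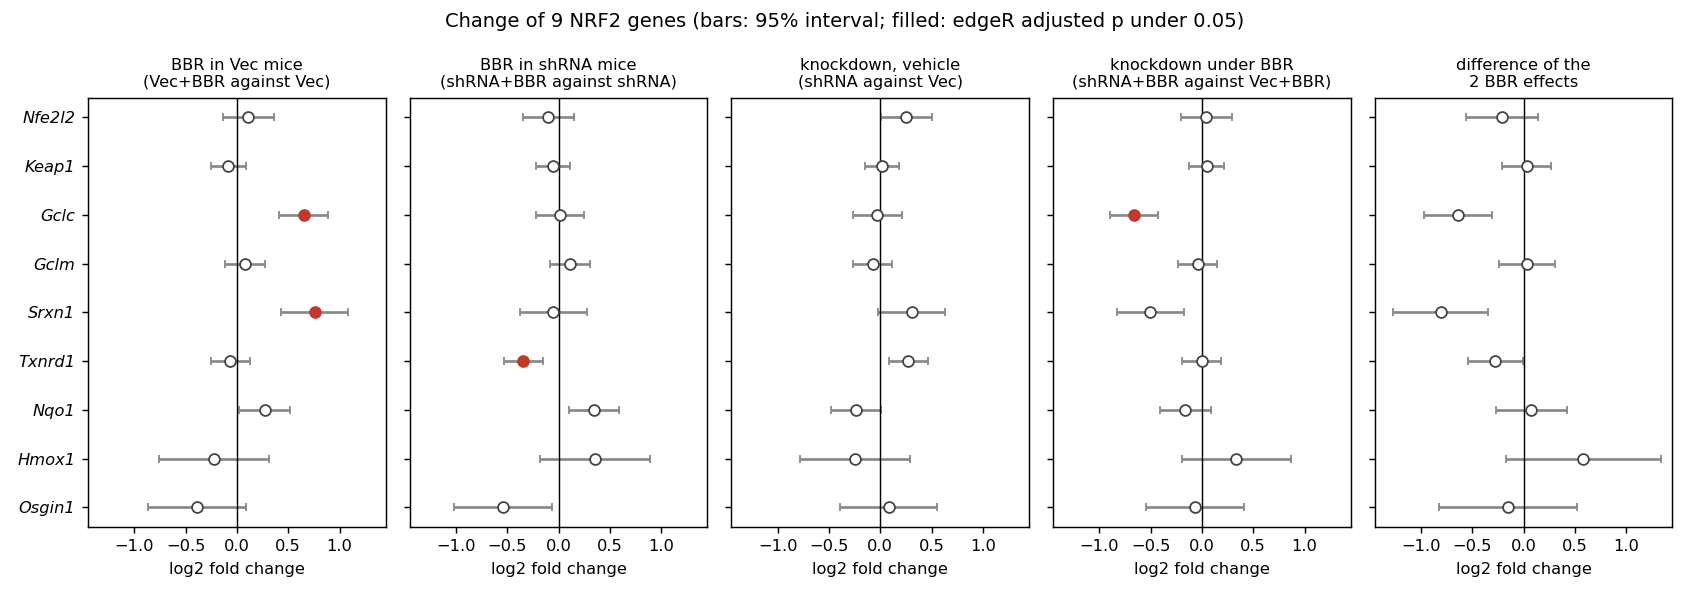
Log2 fold change (x axes) of the 9 tested genes (y axis) in the 4 comparisons between groups and in the difference of the 2 BBR effects, with 95% intervals; filled points had an edgeR adjusted p under 0.05. Gclc (0.65) and Srxn1 (0.76) are filled for BBR in Vec mice, Txnrd1 (−0.34) for BBR in shRNA mice and Gclc (−0.66) for the knockdown under BBR, and no point is filled under vehicle or for the difference.

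The 2 subunit genes of glutamate-cysteine ligase changed unequally, which was examined as the ratio of Gclc to Gclm within each liver, a value that no library scaling can move. The ratio was chosen after the values were seen. It was 0.801, 0.684, 1.08, 0.843 and 0.959 in Vec and 1.11, 1.66, 1.36, 1.13 and 1.20 in Vec+BBR livers, with no overlap. In shRNA livers it was 1.06, 0.848, 0.806, 0.860 and 0.892, and in shRNA+BBR livers 0.971, 0.584, 0.695, 1.03 and 0.960. Of the 4 groups, Vec+BBR was the one that lay above all others. The mean log2 ratio differed by 0.57 with BBR in Vec mice and by −0.62 with the knockdown under BBR (two-sided exact permutation test, p = 0.00794 for each, the smallest possible). It differed by −0.10 with BBR in shRNA mice (exact permutation p = 0.556) and by 0.04 with the knockdown under vehicle (exact permutation p = 0.762). The ratio is one of read counts and, since the genes differ in length, does not give the relative amount of the transcripts.

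**Figure D3:**
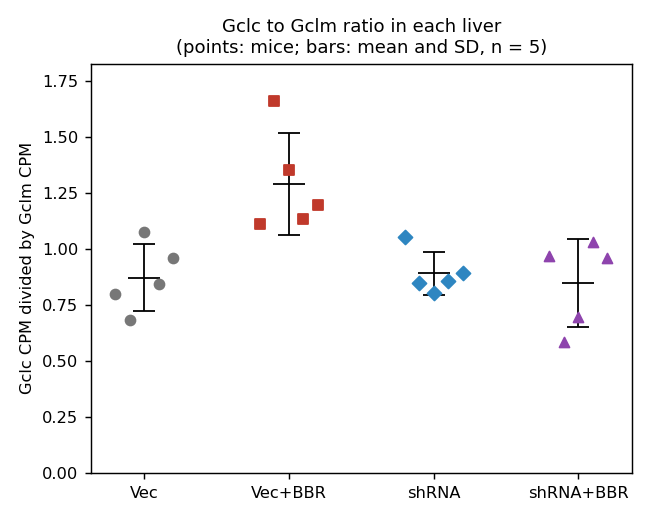
Ratio of Gclc to Gclm CPM (y axis, from 0) in each liver by group (x axis), with the mean and SD of 5 livers. The Vec+BBR livers, from 1.11 to 1.66, lie above the other groups, whose means are 0.873, 0.892 and 0.848.

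Other genes around the pathway were read from 10 lists, of which the members are excluded. Among partners and regulators of NRF2, Mafg, a small MAF partner, was lower with BBR under both vectors (log2 fold change −0.48 in Vec and −0.49 in shRNA mice, edgeR adjusted p = 0.00567 and 0.00838), and was the 1 of 9 genes called in Vec mice. Of all tested genes, 7.58% were called higher and 7.88% lower there. Maff, another small MAF, rose with BBR in shRNA mice by 0.92 (edgeR adjusted p = 0.0341). Sqstm1, the adaptor p62 that takes up KEAP1, was lower with the knockdown under vehicle (−0.30) and under BBR (−0.22, edgeR adjusted p = 0.00419 and 0.0451). Cul3, the ligase scaffold, was higher with the knockdown under vehicle by 0.34 (edgeR adjusted p = 0.0349).

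Beside the rise of Gclc, 5 of 8 genes of the glutathione synthesis and recycling list fell with BBR in Vec mice and 1 rose. Over all tested genes 7.88% were called lower and 7.58% higher, and the median log2 fold change of the 8 genes was −0.39. Glutathione synthetase, Gss (0.28), and glutathione reductase, Gsr (0.01), were not called there (edgeR adjusted p = 0.0776 and 0.934). The genes that fell include both transsulfuration enzymes that make cysteine, Cth (−1.17, from 827 ± 410 to 368 ± 81.1 CPM, edgeR adjusted p = 0.0083) and Cbs (−0.69, edgeR adjusted p = 0.0141). Both overlapped between the groups, with Cth from 303 to 1325 CPM in Vec and from 309 to 502 CPM in Vec+BBR livers. The summed list was at 896 and 1105 CPM in Vec replicates 3 and 5 and at 1853, 1914 and 2145 CPM in the other Vec livers. In Vec+BBR livers it lay between 850.5 and 1084 CPM. Glrx, a glutaredoxin, fell too (−0.48, edgeR adjusted p = 0.000937). Ggct, of glutathione breakdown, rose by 0.71 (edgeR adjusted p = 0.0207). In shRNA mice 2 of these 8 genes were called with BBR, Ggct (0.72) and glutathione synthetase, Gss (0.34), both higher (edgeR adjusted p = 0.0248 and 0.0403), beside 8.37% of all tested genes. Cth was at −0.63 (95% interval −1.21 to −0.05) and Cbs at −0.44 (95% interval −0.82 to −0.06) in these mice without passing (edgeR adjusted p = 0.121 and 0.0976). The interaction called 0 of these 8 genes, so a difference between the vectors was not shown. Slc3a2, the heavy chain that carries SLC7A11 to the membrane, was lower with BBR in Vec mice (−0.41) and, under BBR, higher with the knockdown (0.41, edgeR adjusted p = 0.00701 and 0.0135).

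Glutathione transferases moved both ways with BBR, with 3 of 16 higher and 2 lower in each vector group. Of all tested genes, 7.58% were called higher and 7.88% lower with BBR in Vec mice. In shRNA mice 8.37% were called higher and 7.28% lower. Mgst3, a microsomal transferase, rose from 45.4 ± 18.5 to 89.3 ± 14.3 CPM in Vec and from 31.7 ± 5.46 to 81.5 ± 21.4 CPM in shRNA mice (SD, n = 5; log2 fold change 0.97 and 1.36, edgeR adjusted p = 0.00522 and 0.00226). Gsta2, an alpha-class transferase, fell by 1.27 on the log2 scale in Vec mice and by 0.74 in shRNA mice (edgeR adjusted p = 0.00184 and 0.0419). Transferases of a class are close in sequence, so reads may be split between them. Gstp1 was lower with the knockdown under vehicle (log2 fold change −0.79, edgeR adjusted p = 0.000759).

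Of the thioredoxin and peroxiredoxin genes, 3 of 10 were called with BBR in Vec mice, all lower, among them Prdx6 (−0.43, edgeR adjusted p = 0.00342). In shRNA mice 2 were called, both higher, Txn1 (0.46) and Prdx2 (0.30, edgeR adjusted p = 0.0239 and 0.0297). With BBR, 7.58% of all tested genes were called higher and 7.88% lower in Vec mice. In shRNA mice the shares were 8.37% higher and 7.28% lower. The interaction called 0 of these 10 genes, and it called none in the other lists either. With BBR in Vec mice the largest change in any of these lists was that of the carbonyl reductase Cbr3, a low-level gene that went from 0.825 ± 0.877 to 3.89 ± 1.76 CPM there and from 1.01 ± 0.334 to 2.47 ± 0.691 CPM in shRNA mice, without overlap in either (log2 fold change 2.20 and 1.30, edgeR adjusted p = 0.00216 and 0.0438). The Vec livers, from 0.251 to 2.35 CPM for Cbr3, nearly reached the Vec+BBR livers, from 2.39 to 6.67 CPM. Of all tested genes, 4.70% were higher without overlap with BBR in Vec mice and 5.79% in shRNA mice. Cbr3 shared its list with Nqo2 and Ephx1, which fell in Vec mice, and Aldh3a2, which rose under both vectors. Of the 6 genes that supply NADPH, Taldo1, of the pentose phosphate pathway, rose with BBR in Vec (0.44) and in shRNA mice (0.63), and G6pdx, its first enzyme, rose in shRNA mice by 0.66 (edgeR adjusted p = 0.0366, 0.008 and 0.00801).

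Of 8 heme and iron genes, Slc48a1 rose and Hmox2 fell with BBR in Vec mice, and Blvrb and Fth1 rose in shRNA mice. With BBR, 7.58% of all tested genes were called higher and 7.88% lower in Vec mice. In shRNA mice the shares were 8.37% and 7.28%. Under vehicle the knockdown lowered 3 of these 8 genes, Blvrb (−0.86), Fth1 (−0.44) and Fech (−0.29, edgeR adjusted p = 0.00132, 0.0054 and 0.0236), beside 7.91% of all tested genes. Among 6 efflux pumps of conjugates, Abcc4 rose with BBR in Vec mice by 0.79 (edgeR adjusted p = 0.0192), Abcc2 fell in shRNA mice, and Abcc3 was lower with the knockdown under BBR (−0.88, edgeR adjusted p = 0.00124) and under vehicle. Of 5 genes for catalase, superoxide dismutases and glutathione peroxidases, Sod3 rose with BBR under both vectors, and Cat and Sod3 fell with the knockdown under vehicle. Of 12 genes of the integrated stress response, whose factor ATF4 also drives Slc7a11, none was called higher with BBR in either vector group. Their log2 fold changes ran from −1.19 to 0.94 in Vec mice and from −0.58 to 1.14 in shRNA mice. Atf4 (−0.32) and Atf5 (−0.73) fell in Vec mice (edgeR adjusted p = 0.0376 and 0.00238) and Sesn2 fell in shRNA mice.

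**Figure D4:**
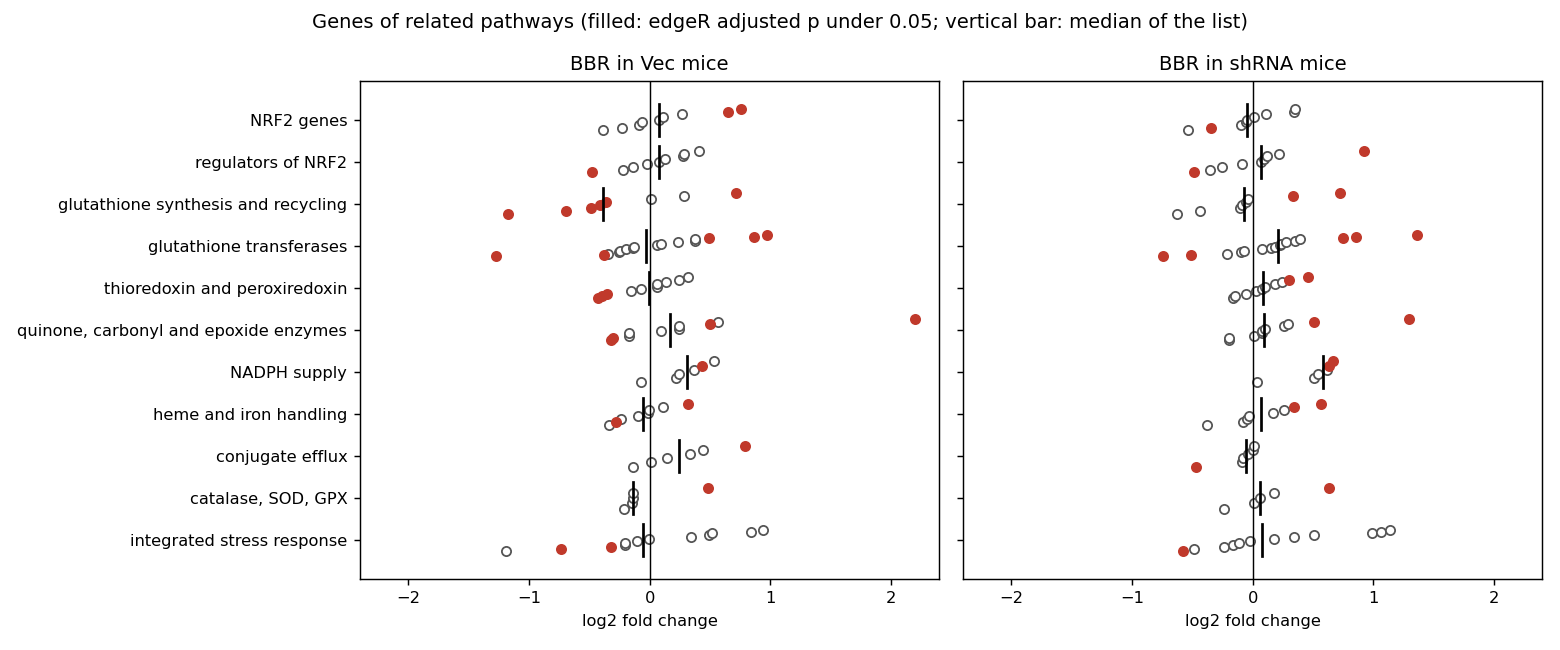
Log2 fold change with BBR (x axes) of each tested gene of the 10 lists and of the NRF2 genes (rows), in Vec mice (left) and shRNA mice (right); filled points had an edgeR adjusted p under 0.05 and the vertical bar is the median of the list. The NRF2 genes have medians of 0.08 and −0.05, glutathione synthesis and recycling genes have a median of −0.39 in Vec mice with 5 filled points to the left, and Cbr3 lies farthest right at 2.20 and is at 1.30 in shRNA mice.

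The 9 tested genes did not move as a unit among livers of the same group. With group means removed, the 36 pairs had correlations from −0.595 to 0.637 over 20 libraries, with a median of 0.08 and 22 above 0. None passed a permutation test after adjustment over the 36 pairs, and 2 had an unadjusted p under 0.05. These were Gclc with Srxn1 (Pearson r = 0.637, permutation p = 0.00465, adjusted p = 0.167; Spearman rho = 0.373, permutation p = 0.14; r = 0.681 without the 2 farthest livers) and Gclm with Txnrd1 (Pearson r = −0.595, permutation p = 0.0113, adjusted p = 0.204; Spearman rho = −0.639, permutation p = 0.00684; r = −0.568 without the 2 farthest livers). Gclc and Gclm had r = −0.325 (permutation p = 0.266; Spearman rho = −0.341, permutation p = 0.203), and r = −0.276 without the 2 farthest.

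The mean z-score of the tested targets ranged from −0.713 to 0.233 in Vec and from 0.0695 to 0.857 in Vec+BBR livers. Over the 20 libraries, the genes whose level most resembled this score were Agfg1 (Pearson r = 0.836), Nfya (0.814), Bicc1 (0.810), Sar1a (0.794) and App (0.790), a likeness over points that share groups and libraries. Gclc alone, taken after its values were seen, was most like Ddx17 (r = 0.912) and Ivns1abp (r = 0.909). Srxn1 ranked 83 among the tested genes in likeness to Gclc (r = 0.788), Nqo1 ranked 1707 and Gclm 5124.

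Markers of other cell types moved with BBR as well. Beside the rise of Gclc and Srxn1 in Vec mice, 4 of 7 endothelial, 3 of 7 stellate and 1 of 5 tested cholangiocyte markers were higher, 1 of 10 macrophage markers was higher and 2 lower, and 4 of 8 hepatocyte markers were lower. Of all tested genes, 7.58% were called higher and 7.88% lower there. The summed stellate markers lay between 151 and 282 CPM in Vec, 301 and 336 CPM in Vec+BBR, 187 and 248 CPM in shRNA, and 249 and 379 CPM in shRNA+BBR livers. The summed endothelial markers lay between 86.8 and 115 CPM in Vec, 109 and 150 CPM in Vec+BBR, 122 and 155 CPM in shRNA, and 105 and 152 CPM in shRNA+BBR livers. With BBR in shRNA mice, 4 of 7 stellate markers were higher, 1 of 7 endothelial markers was higher and 2 lower, 1 of 5 cholangiocyte markers was higher, 2 of 10 macrophage markers were higher and 1 lower, and 2 of 8 hepatocyte markers were lower. Of 3 tested neutrophil markers, 1 was higher, and of all tested genes 8.37% were called higher and 7.28% lower. Under vehicle, 3 of 7 endothelial markers were higher with the knockdown, where 5.28% of all tested genes were. There 1 of 7 stellate, 1 of 10 macrophage and 2 of 8 hepatocyte markers were lower, beside 7.91% of all tested genes. None of the 7 stellate or 7 endothelial markers was at 0 in any group. Their part in the levels of the 10 genes was not tested.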

How the data were processed

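Bulk RNA-seq of poly(A) RNA was available for 20 livers in 4 groups of 5, taken from the labels. The dose, the treatment time and the age are those of the study's methods. The deposited tables give, per gene, an expected count (91.9 to 93.3% of values whole) and FPKM, both computed by the authors. The submitters' processing notes name mm10, and the aligner, counter and annotation are not given in the sources used here. No source states that strand was used. The labels do not say whether livers shared a cage or a day.

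Expected counts were rounded and genes were kept with edgeR's filterByExpr (minimum count 10), which left 12342 of 22298. Counts were normalized by TMM and tested with edgeR 4.0.16 (R 4.3.3), using the quasi-likelihood test on all 4 groups with Benjamini-Hochberg adjustment over all genes tested, and a gene was called at an adjusted p under 0.05. The procedure was tested on simulated data whose changes were larger than those of the members called, so that test does not cover changes of their size. Levels are TMM-normalized CPM (mean ± SD), and FPKM as deposited served to compare genes. Slc7a11, single ratios and pairs of genes were compared by permutation (exact over the 252 assignments of 10 livers to 2 groups, or 100000 permutations for pairs). The 95% intervals and p-values of edgeR measure the spread between these livers, and the floor of 3 counts covers counting error only. Alternatives were DESeq2 1.42.0, limma-voom (limma 3.58.1), RLE factors, filters of none or at least 10 counts in every library, a fit of only the 2 groups compared, a replicate block, and each liver left out. Leaving out Vec replicates 3 and 5 together, and counts in place of CPM for Slc7a11, were added after the data were seen.

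Genes named are the 10 members, Pparg, list genes past the threshold (at most the 4 with the largest change of a list), and the 5 tested genes most like the mean z-score of the targets. The members and lists were chosen with earlier results of these data known. Gene positions are from GENCODE M21 on GRCm38, and promoter windows are from RefSeq. Gclc and Hmox1 had no entry in the promoter table. Txnrd3, Gpx2, Gpx3 and Gpx4 were not analysed here.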

Additional observations from a re-analysis of the deposited data

Results flagged for a closer look

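In 3 of 40 sets of 5 livers (10 genes in 4 groups) 1 liver stood apart by Dixon's criterion, where chance gives about 1 in 20. Nfe2l2 was at 68.4 CPM in Vec replicate 5, the highest of 5, with a gap to the next liver of 0.77 of the range. Nfe2l2 was at 75.0 CPM in shRNA+BBR replicate 4, with a gap of 0.816 of the range. Srxn1 was at 84.2 CPM in Vec replicate 3, with a gap of 0.89 of the range, and this liver is the one that makes the Vec and Vec+BBR ranges of Srxn1 overlap.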

How the results depend on the processing

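With BBR in Vec mice, 2 members were called in all 18 alternatives, and Gclc (log2 fold change 0.57 to 0.74, edgeR, DESeq2 or limma-voom adjusted p from 2.64e-06 to 0.00609) and Srxn1 (0.64 to 0.93, adjusted p from 0.000132 to 0.0176) passed in each. The lower Gclc level with the knockdown under BBR passed in all 17 alternatives. For BBR in shRNA mice, 2 members were called with only the 2 groups fitted, with at least 10 counts in every library and with DESeq2, and 0 to 2 with 1 liver left out. For the knockdown under BBR, 2 were called with only the 2 groups fitted, with DESeq2 and with limma-voom, and 1 to 2 with 1 liver left out. For the knockdown under vehicle, 1 was called with RLE factors, with at least 10 counts in every library, with DESeq2, with limma-voom and without Vec replicates 3 and 5, and 0 to 1 with 1 liver left out. For the interaction, 2 were called with DESeq2 and without Vec replicates 3 and 5, and 0 to 1 with 1 liver left out. The cause of these shifts was not tested. The Slc7a11 difference of the shRNA from the Vec livers lay between −0.200 and −0.126 CPM with 1 liver left out, and was −2.8 counts with counts in place of CPM (exact permutation p = 0.0714). Hmox1 with BBR in Vec mice, which was not called, turned from −0.23 to 0.13 without Vec replicate 5 and to 0.21 without Vec replicates 3 and 5, and Osgin1 ran from −0.54 to −0.15 with 1 liver left out.

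The replicate block gave 2, 1, 0, 1 and 0 members called for BBR in Vec mice, BBR in shRNA mice, the knockdown under vehicle, the knockdown under BBR and the interaction, the same numbers as without it. Livers of the same replicate number correlated above 0.1 in 3 of 5 pairs at most, which was for BBR in shRNA mice. Livers of different numbers were not compared in this way, so whether replicate numbers pair the livers is not decided. Over all genes, the number called ranged from 1178 to 2964 for BBR in Vec mice and from 661 to 2527 for BBR in shRNA mice, from 1015 to 2284 for the knockdown under vehicle, from 538 to 1418 for the knockdown under BBR and from 5 to 338 for the interaction. Depth limits what can be said of Slc7a11, with 0 to 11 counts per library.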
